A study of Mus musculus with 32 samples.

Results

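The cytosolic ribosomal protein genes were taken as all genes of the exon count tables whose name starts with Rpl or Rps followed by a digit, together with Rplp0, Rplp1, Rplp2 and Rpsa. Of 108 such names, 10 Rps6k kinase genes and 8 entries marked as pseudogenes were left out, and 6 of the remaining 90 had fewer than 260 counts over the 26 amygdala libraries. That left 84 genes of the 25239 in the tables, 35 with a small-subunit name and 49 with a large-subunit name. Just above the threshold lay Rpl3l with 320 counts, Rps27 with 512, Rps23rg1 with 696 and Rpl34 with 699. Below it lay Rpl30 with 167 counts, Rpl32l with 94 and Rpl39l with 41, while Rpl10l, Rpl26 and Rps27rt had 0. On the same strand, Rpl26 shares 95.8% of its exon bases with Gm15772, Rpl30 76% with Gm12191 and Rps27rt 100% with Rps27. The low counts of these genes are therefore uncertain and do not show that they are hardly expressed. The rule works on names, so the 84 also hold Rps19bp1, a protein that binds a ribosomal protein and is not one itself, and the retroposed copy Rps23rg1.

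The libraries came from the amygdala of wild-type mice. All animals had a stereotaxic injection into the amygdala 24 h before RNA was taken, either of the uridine analogue 4-thiouridine (4sU, 100 mM in DMSO) or of DMSO alone, and all RNA was alkylated, so that labelled uridines read as T-to-C conversions (SLAM-seq). There were 6 groups, with 5 baseline, 5 acute stress and 4 chronic stress libraries in the 4sU arm and 4 baseline, 5 acute stress and 3 chronic stress libraries in the DMSO arm. The labels give neither the stress protocol nor the age or sex of the mice, and do not say whether a library is 1 animal or a pool. If libraries shared animals, p-values measure only the spread between these libraries. An additional 6 cortex libraries were not used here.

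Ribosomal proteins are the protein part of the ribosome, made in the cytoplasm, imported into the nucleolus and assembled with ribosomal RNA into a 40S small and a 60S large subunit. Their mRNAs are short, abundant and stable, and most begin with a C followed by a run of pyrimidines, the 5′ terminal oligopyrimidine (TOP) motif, through which mTOR signalling and LARP1 set their translation together. In neurons these mRNAs are found in dendrites and axons as well as in the cell body.

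The motif can be read at the annotated starts of the genes. RefSeq promoter windows (GRCm38.p6) matched 64 of the 84 genes by symbol. A C at the annotated start followed by 4 letters that were each C or T stood in 13 of the 64, or 20.3%, against 383 of 12770 matched genes among those tested for expression. A C followed by 6 such letters, anywhere from 20 bases before to 30 bases after the start on the transcribed strand, stood in 37 of the 64, or 57.8%, against 26.4%. The following starts are shown because these genes recur in the results, or because they show the run at its plainest; they were chosen after their sequences and values were seen. Each window holds 10 bases before and 20 from the annotated start, and capitals mark the longest run of a C followed by 4 or more C or T within those 20 bases.
Rps6: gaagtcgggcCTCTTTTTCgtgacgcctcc
Rps18: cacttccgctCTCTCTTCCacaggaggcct
Rps10: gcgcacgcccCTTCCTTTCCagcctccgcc
Rplp2: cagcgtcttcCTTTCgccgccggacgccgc
Rpl15: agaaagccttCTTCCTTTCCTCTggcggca
Rpl35: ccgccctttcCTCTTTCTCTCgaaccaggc
Rpl38: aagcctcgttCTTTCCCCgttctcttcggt
Rps24: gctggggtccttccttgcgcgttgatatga
Rpl22l1: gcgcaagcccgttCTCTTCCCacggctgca
Rps27l: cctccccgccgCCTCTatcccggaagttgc

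The windows lie at chr4:86857348-86857377 (minus strand) for Rps6, chr17:33955646-33955675 (minus) for Rps18, chr17:27635225-27635254 (minus) for Rps10, chr7:141447641-141447670 (plus) for Rplp2 and chr14:18270967-18270996 (minus) for Rpl15. They lie at chr2:39005112-39005141 (minus) for Rpl35, chr11:114668570-114668599 (plus) for Rpl38, chr14:24490668-24490697 (plus) for Rps24, chr3:28805498-28805527 (plus) for Rpl22l1 and chr9:66946076-66946105 (plus) for Rps27l. In the first 7 the run opens at the annotated start and spans 5 to 13 bases. In Rpl22l1 it opens after 3 bases and in Rps27l after 1 base, and in Rps24 no such run lies in the 20 bases, although the bases just before the annotated start are pyrimidines. A shift of the annotated start by a few bases would change these descriptions. In the whole window, 250 bases before and 50 from the start on either strand, CCGGAAG (an ETS-type motif) stood in 37.5% of the 64 and in 17.1% of the 12770 and AAGATGGC (a YY1-type motif) in 9.38% and 4.52%. The first of these ends in the letters AAG with which the second begins, so the 2 can overlap. A match describes the letters only.

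Total exon counts ran from 16150316 to 21228741 per library. The 84 genes took 0.961% to 1.33% of them in 25 libraries and 1.92% in acute DMSO library 2. The headers of the conversion tables number the libraries in 2 runs, 0 to 9 for the baseline and acute 4sU libraries (the 10-library set) and 0 to 15 for the other 16 (the 16-library set); what the numbers stand for is not given in the sources used here. Reads in 3′ UTR intervals came to 37.1% to 39.7% of the exon counts in the 10-library set and 44.7% to 53.4% in the other, and the mean log2(CPM + 0.5) of 12 oligodendrocyte markers was 7.53 to 8.06 in the first and 8.54 to 9.67 in the second. Every comparison that crosses the sets carries this division with it, and in them the division and the groups compared cannot be told apart. In these bulk samples, fewer cells of a type and less RNA per cell cannot be told apart either. Ranked by excitatory neuron markers, the 5 lowest libraries were libraries 1, 3 and 4 of acute DMSO, library 3 of chronic 4sU and library 1 of chronic DMSO. The number 5 was a setting and does not mark a gap in the values. Chronic 4sU library 4, with a mean log2(CPM + 0.5) of 5.164, was not among them, beside 5.162 in library 3. The 4 haemoglobin genes were listed at 0 in all 26 libraries.

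Per kilobase of exon, the ribosomal protein genes stood far above most genes of the tissue. Their median level was 141 RPKM (TMM-scaled CPM per kilobase, median over 26 libraries), above 98.1% of the genes tested for expression, whose median was 7.34 RPKM. Of the 84, 56 exceeded 100 RPKM, 23 lay between 10 and 100, and 5 lay under 10. The highest were Rplp1 (517 RPKM; 347 to 1131 over the libraries), an acidic protein of the large-subunit stalk that recruits elongation factors, Rpl41 (512 RPKM; 370 to 1179), whose product is the smallest ribosomal protein, and Rps15 (380 RPKM; 325 to 768), a protein of the small-subunit head. The ranges of these 3 overlap. The lowest were Rpl3l (0.440 RPKM), a paralogue of Rpl3 best known from muscle, Rps23rg1 (0.928 RPKM) and Rps27 (1.76 RPKM).

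Levels of some of these genes depend on how reads were shared between near-identical copies, and how that was set is not given in the sources used here. Rps27 shares 60% of its exon bases with Rps27rt and Rpl34 (2.28 RPKM) shares 59.9% with Rpl34-ps1 on the same strand, so their low levels are uncertain. Of the 84 genes, 62 have at least 1 entry marked as a pseudogene in the RefSeq annotation, with 24 for Rpl31, 23 for Rps12 and 15 for Rpl21. On the opposite strand, Rpl5 shares 47.7% of its exon bases with Dipk1a, Rpl31 33.1% with Tbc1d8, Rps25 29.4% with Ccdc84 and Rps27a 11.1% with Clhc1. The strand setting of the counting is not given either, so those values too are uncertain.

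The module as a whole lay in a narrow band in every group. The mean log2(CPM + 0.5) of the 84 genes was 6.36 to 6.59 in the baseline 4sU libraries and 6.30 to 6.75 in the acute 4sU libraries. In the DMSO arm it was 6.33 to 6.55 at baseline and 6.39 to 6.57 after chronic stress, and in the chronic 4sU libraries 6.33 to 6.52. The exception was acute DMSO library 2, at 7.26, where the other 4 libraries of its group lay at 6.25 to 6.44. Its 84 values had a median of 0.87 on the log2 scale above the median of those 4 libraries (all genes tested, 0.03), and 82 of 84 were above it. It held the highest value of all 26 libraries for 73 of the 84 genes; it did so for 20.7% of all genes tested.

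**Figure D1:**
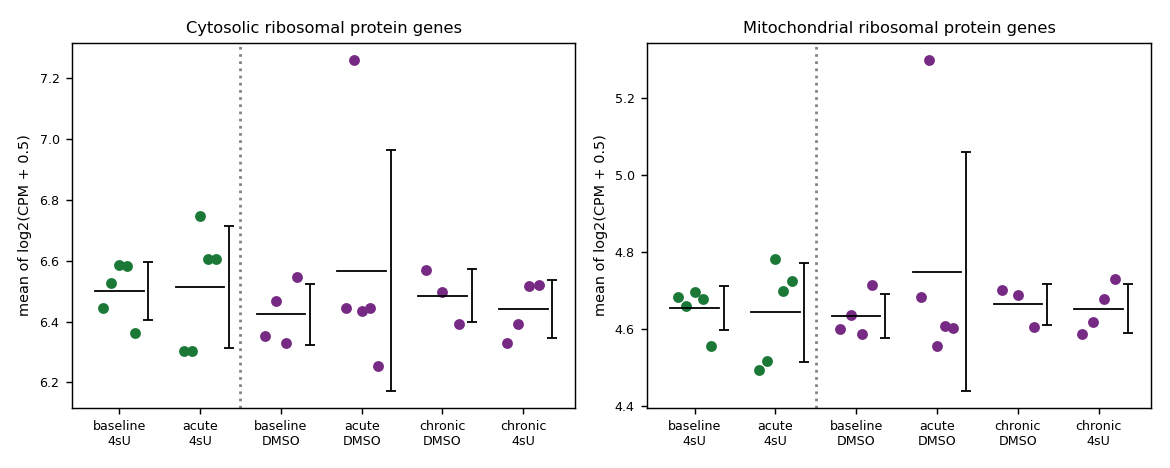
Mean log2(CPM + 0.5) of the 84 cytosolic (left) and of the mitochondrial (right) ribosomal protein genes in each amygdala library by group. Points are libraries (green, the 10-library set; purple, the 16-library set), lines are group means and bars 1 SD; acute DMSO library 2 lies above all others in both panels, at 7.26 and 5.30.

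The same library was apart in other measures. Mitochondrial ribosomal protein genes, which encode the separate ribosome of the mitochondrion, had a mean log2 level of 5.30 there and 4.56 to 4.68 in the other 4 libraries of the group. Its 3′ UTR read share was 53.4%, against 44.7% to 46.3%. Its excitatory neuron markers averaged 5.83, within the 3.93 to 6.31 of the other 4, and its inhibitory neuron markers 6.2, above their 5.81 to 5.97. The part of these measures in the ribosomal protein levels was not tested. For the exon counts of the acute DMSO group, counts of called genes and the tests of single genes are therefore given without this library too; the 3′ UTR values are given with it only.

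The comparison of acute stress with baseline in the 4sU arm asks whether acute stress moved these mRNAs, and lies within the 10-library set. None of the 84 genes passed an adjusted p of 0.05 (edgeR quasi-likelihood test, Benjamini-Hochberg adjustment over all genes tested), where 0.269% of 15995 genes did. None had an unadjusted p under 0.05, and DESeq2 also called 0. Their median log2 fold change was 0.01 (all genes, 0.00), with values from -0.26 for Rpl21 to 0.44 for Rpl7a, both 60S proteins named after their values were seen. The 95% interval lay within a 1.5-fold change in either direction for 75 of the 84 genes.

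Single genes gave the same picture. Rplp0, the base of the stalk, had 262, 274, 307.5, 269.4 and 251 CPM in the baseline and 246, 230, 289, 279 and 273 CPM in the acute 4sU libraries. The groups overlap, and the log2 fold change was -0.05 (SE 0.12). Rps6, the substrate of the S6 kinases, had 228 to 264 CPM (median 242) at baseline and 220 to 271 CPM (median 255) after acute stress, a log2 fold change of 0.00 (SE 0.14). Rpl5 and Rpl11, which bind 5S rRNA and can hold the p53 ligase MDM2, had log2 fold changes of 0.01 (SE 0.13) and 0.02 (SE 0.17). Rpl41 had 0.08 (SE 0.23).

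The same question in the DMSO arm, within the 16-library set, gave a median log2 fold change of 0.21 (all genes, 0.02), with 81 of 84 genes above 0. In the edgeR test 0 of the 84 passed, where 2.51% of all genes did. An unadjusted p under 0.05 was found for 4 of the 84 and for 2640 of 15995 genes. DESeq2 called 1 of the 84 and 821 of 15993 genes. The 81 rest on 1 library. Without acute DMSO library 2 the median was 0.01, 46 of 84 were above 0 and again 0 were called. Leaving out the 5 libraries low in excitatory neuron markers, which leaves 2 acute DMSO libraries of which library 2 is one, 9 genes were called higher (among them Rpl28, Rpl22, Rps15a, Rpl36al, Rps4x, Rps19bp1, Rps13 and Rps4l) and the median was 0.46. That is 10.7% of the 84, where 14.7% of all genes were called in the same fit.

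Rplp0 shows the pattern in single values. It had 192, 188, 194 and 215 CPM in the baseline DMSO libraries and 203, 316, 186, 184 and 180 CPM in the acute DMSO libraries. Only library 2 lay above the baseline range. Rps6 had 220 to 247 CPM at baseline and 219, 429, 255, 245 and 220 CPM after acute stress, with library 2 again apart and library 3 a little above baseline.

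Averaged over both arms, acute stress gave 0 called genes of 84 in edgeR (2.39% of all genes) and 0 in DESeq2. In edgeR 2 of the 84 had an unadjusted p under 0.05, against 2160 of 15995 genes. The median was 0.12 and became 0.01 without acute DMSO library 2. The difference of the acute response between arms gave 0 called genes (2 unadjusted, 0 by DESeq2; all genes, 0%, with 916 at an unadjusted p under 0.05 and 20 called by DESeq2); its median was -0.20, and 0.01 with 0 called without acute DMSO library 2. The 95% interval of that difference stayed within 1.5-fold for only 20 of the 84.

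Chronic stress against baseline in the DMSO arm also lies within the 16-library set. No gene of the 84 was called by edgeR, as no gene of 16096 was (0%); 7 of the 84 and 913 of all genes had an unadjusted p under 0.05. DESeq2 called 11 genes, of which 1 was among the 84. The median log2 fold change was 0.07 (all genes, 0.01), 71 of 84 were above 0, and the 95% interval stayed within 1.5-fold for 77 of the 84.

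Rpl28, a large-subunit protein singled out after its values were seen, was among the genes with an unadjusted p under 0.05 in both DMSO comparisons with baseline, which share their 4 baseline libraries. It had 98.5, 97.4, 96.6 and 107.2 CPM in those. It had 124.5, 209, 113.5, 119.8 and 107.4 CPM in the acute and 137.6, 125.9 and 110.7 CPM in the chronic DMSO libraries, so neither stress group overlaps baseline, although acute library 5 lies just above it. The edgeR log2 fold changes were 0.45 (SE 0.15, adjusted p = 0.13) after acute and 0.32 (SE 0.08, adjusted p = 0.55) after chronic stress. Without acute DMSO library 2 the acute value was 0.245 (SE 0.09, adjusted p = 0.098). In the 4sU arm the acute libraries, at 96.7 to 127 CPM, overlap the baseline range of 94.96 to 125 CPM.

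Chronic DMSO libraries against acute DMSO libraries gave 0 called genes of 84 in edgeR (1.78% of all genes), with 0 under an unadjusted p of 0.05, and 0 in DESeq2. The median was -0.13, and 0.10 without acute DMSO library 2, so the side on which most genes lay depends on that library. With 4sU against DMSO after chronic stress, both arms lie in the 16-library set. There 0 of 84 were called by edgeR (0.137% of all genes) and 0 by DESeq2 (147 of 16096 genes). In edgeR 2 of the 84 had an unadjusted p under 0.05, against 1475 of 16096 genes. The median log2 difference was -0.065, and the 95% interval stayed within 1.5-fold for 77 of the 84.

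**Figure D2:**
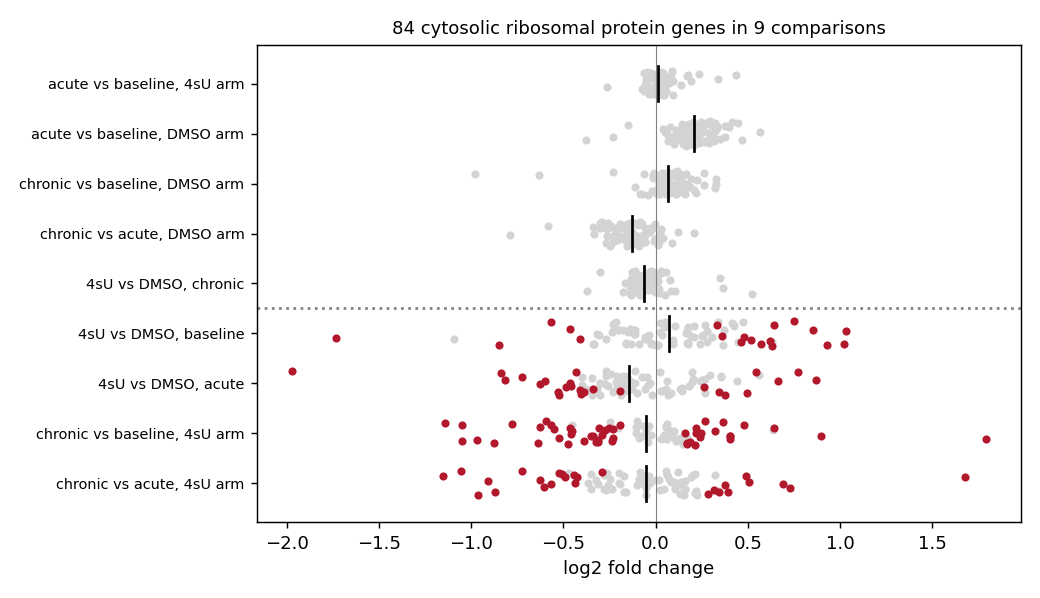
Log2 fold changes of the 84 genes in 9 comparisons; each point is a gene, red where the adjusted p was under 0.05, and black lines are medians. The 5 comparisons above the dotted line lie within 1 set of libraries and hold no called gene; the 4 below it cross the sets and hold 19, 25, 49 and 26.

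The comparisons that cross the sets looked different. With 4sU against DMSO at baseline, 19 of the 84 genes (22.6%) were called, 14 higher and 5 lower in the 4sU libraries, against 41.9% of all genes, and the median was 0.07 (all genes, -0.01). With 4sU against DMSO after acute stress, 25 (29.8%) were called, 8 higher and 17 lower, against 48.3% of all genes, with a median of -0.14. Without acute DMSO library 2 the second count was 44 (52.4%, against 56.4% of all genes), with 28 higher and 16 lower, and the median 0.11. With only the 2 groups compared in the fit, the counts were 51 (60.7%, against 57.7% of all genes) and 14 (16.7%, against 39% of all genes), so they depend on which groups share the estimate of the spread.

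The 2 comparisons share no library, but both set the 10-library set against the 16-library set and come from the same fit. Shared calls therefore cannot separate the arms from that division, and they are not independent replication. The overlap over all genes is not given here. All 8 genes called higher after acute stress (Rplp1, Rplp2, Rps12, Rps16, Rps4l, Rpl3, Rpl13 and Rpl27) were among the 14 called higher at baseline, which is 100% of the first list and 57.1% of the second. All 5 called lower at baseline (Rpl22l1, Rps27l, Rps24, Rpl35 and Rpl23a) were among the 17 called lower after acute stress, 29.4% of them. No gene was called in opposite directions. Without acute DMSO library 2, all 14 genes called higher at baseline were called higher after acute stress too.

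**Figure D3:**
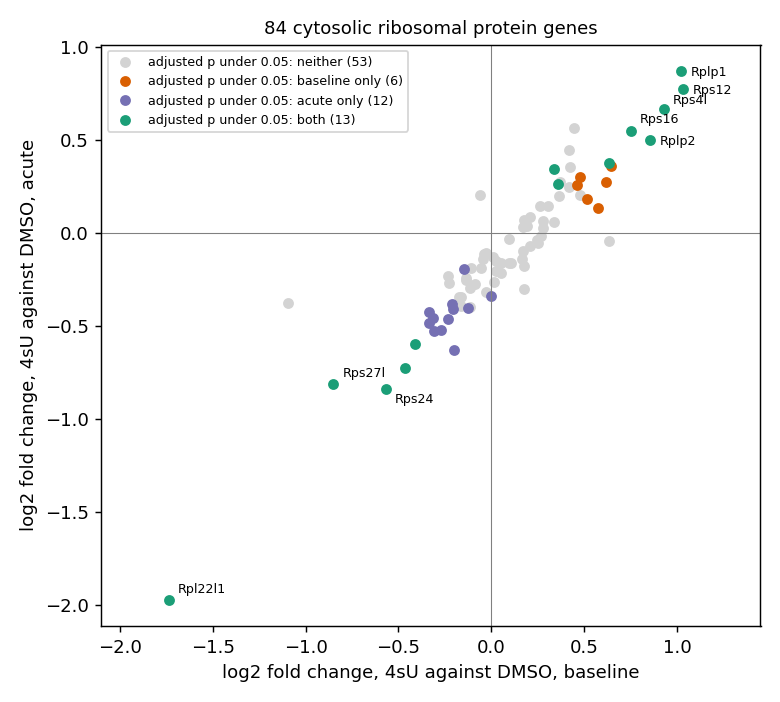
Log2 fold change of 4sU against DMSO at baseline (x axis) and after acute stress (y axis) for the 84 genes, coloured by adjusted p under 0.05. Genes called in both comparisons (13) lie on the same side in both; Rpl22l1 is at the lower left with -1.74 and -1.97.

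The largest difference was in Rpl22l1, a paralogue of the 60S protein Rpl22 that the Rpl22 protein is known to hold down. It had 13.5, 13.4, 14.8, 14.8 and 10.85 CPM in the baseline and 13.4, 12.2, 16.8, 14.8 and 16.9 CPM in the acute 4sU libraries. In the baseline DMSO libraries it had 39.5, 48.1, 40.7 and 52.5 CPM, in the acute DMSO libraries 42.7, 110, 48.6, 52.1 and 36.8 CPM. The sets do not overlap. The log2 fold change of 4sU against DMSO was -1.74 (SE 0.24, adjusted p = 9.3e-06) at baseline and -1.97 (SE 0.23, adjusted p = 8.5e-07; -1.62 without acute DMSO library 2) after acute stress by edgeR. The chronic 4sU libraries, which carry 4sU but belong to the 16-library set, had 41.5, 43.7, 49.6 and 54.8 CPM, and the chronic DMSO libraries 60.3, 47.8 and 46.1 CPM. Those 2 groups overlap each other and the other DMSO groups.

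Rpl22 itself had 56.1 to 75.0 CPM in the 10-library set and 70.4 to 137 CPM in the other, with some overlap. Its log2 fold change of 4sU against DMSO after acute stress was -0.47 (SE 0.14, adjusted p = 0.0085), or -0.275 (adjusted p = 0.0050) without acute DMSO library 2, and it was not called at baseline. Rps27l, a paralogue of Rps27 and a p53 target, had 4.06 to 9.07 CPM in the 10-library set and 8.82 to 20.6 CPM in the other, with some overlap, and was lower with 4sU at baseline (log2 fold change -0.85, adjusted p = 0.0085) and after acute stress (-0.82, adjusted p = 0.0061; -0.57, adjusted p = 0.013, without library 2). Rps4l, a copy of Rps4x, went the other way, with 33.2 to 52.8 CPM against 17.3 to 37.7 CPM and log2 fold changes of 0.93 (adjusted p = 0.00011) and 0.66 (adjusted p = 0.00099; 0.81 without library 2). Rpl36al, a copy of Rpl36a, was called in neither, but without library 2 it was called higher after acute stress (0.24, adjusted p = 0.013).

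In the stalk, 3 of 4 genes were called higher with 4sU at baseline and 2 after acute stress. Without acute DMSO library 2, 3 were called higher after acute stress. Of all 15995 genes, 3378 were called higher and 3316 lower at baseline, and 3756 and 3969 after acute stress. Without library 2, 56.4% of all genes were called after acute stress. These shares stand beside the counts for the other parts of the ribosome too. Rplp1 had 392, 450, 471, 451 and 368 CPM in the baseline and 360, 337, 529, 476 and 464 CPM in the acute 4sU libraries. It had 189, 224, 189 and 242 CPM in the baseline, 222, 386, 204, 210 and 163 CPM in the acute and 246, 213 and 201 CPM in the chronic DMSO libraries, and 172, 185, 242 and 236 CPM in the chronic 4sU libraries. The 2 sets overlap only through acute DMSO library 2. The log2 fold change of 4sU against DMSO was 1.02 (SE 0.19, adjusted p = 0.00029) at baseline and 0.87 (SE 0.18, adjusted p = 0.00053; 1.10 without library 2) after acute stress. Rplp2, its partner in the stalk dimer, had log2 fold changes of 0.86 (adjusted p = 0.0023) and 0.50 (adjusted p = 0.037; 0.79, adjusted p = 5.0e-06, without library 2). Rplp0 had 0.48 (adjusted p = 0.0072) at baseline and 0.30 (adjusted p = 0.056) after acute stress, which became 0.46 (adjusted p = 1.1e-05) without library 2. Rpl12, at the stalk base, was called in neither and had values of the opposite sign, -0.14 and -0.24 (-0.07 without library 2).

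In the 40S head and beak, 3 of 14 genes were called higher at baseline and 0 lower. After acute stress 2 were higher and 1 lower, or 8 and 1 without library 2. Of all genes, 41.9% were called at baseline and 48.3% after acute stress, or 56.4% without library 2. Rps12, a beak protein, had 72.5 to 104.5 CPM in the baseline 4sU group and 76.2 to 113 CPM in the acute one. The DMSO groups had 39.3 to 48.9 CPM at baseline and 44.1 to 88.5 CPM after acute stress, the top value again from library 2. Its log2 fold changes were 1.03 (adjusted p = 0.00015) and 0.77 (adjusted p = 0.00083; 1.001 without library 2); it has 23 annotated pseudogene entries. Rps16 had 0.75 (adjusted p = 0.0023) and 0.55 (adjusted p = 0.011; 0.775 without library 2). Of the 17 genes of the 40S body and platform, 1 was called higher (Rpsa, the laminin receptor homologue) and 1 lower (Rps24) at baseline, and 0 and 5 after acute stress. Without library 2 the latter counts were 3 (Rpsa, with 0.45 and adjusted p = 0.00025, Rps15a and Rps23) and 4. Rps24, mutated in Diamond-Blackfan anaemia, had 140 to 186 CPM in the 10-library set and 235 to 494 CPM in the other, with no overlap, and log2 fold changes of -0.57 (adjusted p = 0.012) and -0.84 (adjusted p = 0.00030; -0.59 without library 2).

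In the 60S subunit, the 2 genes of the 5S particle, Rpl5 and Rpl11, were called in neither comparison. Among 8 genes at the polypeptide exit tunnel and its rim, Rpl35 and Rpl23a were called lower in both and 0 were called higher in either, although Rpl4 was called higher after acute stress without library 2. Rpl35 had 60.1 to 84.1 CPM in the 10-library set and 90.5 to 191 CPM in the other, with log2 fold changes of -0.46 (adjusted p = 0.026) and -0.73 (adjusted p = 0.00058; -0.515 without library 2). Rpl3, at the peptidyl transferase centre, had 502 to 602 CPM in the 10-library set and 391.5 to 627 CPM in the other, with 0.36 (adjusted p = 0.012) and 0.26 (adjusted p = 0.039; 0.39 without library 2). Small-subunit and large-subunit names were spread over both directions, with 6 and 8 called higher and 2 and 3 called lower at baseline.

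**Figure D4:**
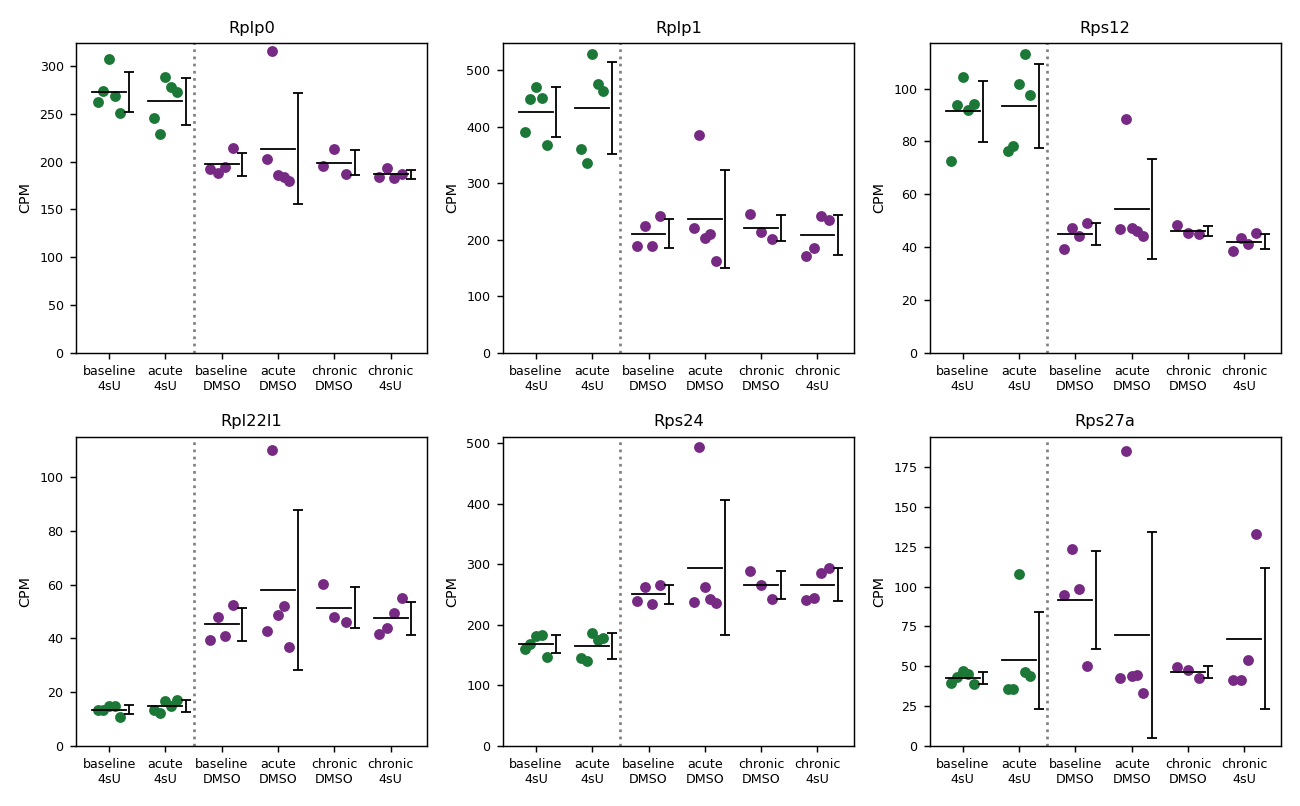
CPM of Rplp0, Rplp1, Rps12, Rpl22l1, Rps24 and Rps27a in each library by group (green, the 10-library set; purple, the 16-library set; lines, group means; bars, 1 SD). The chronic 4sU libraries lie with the DMSO libraries, not with the other 4sU libraries, in the first 5 panels; Rps27a is high in 3 of 4 baseline DMSO libraries and in 1 library each of 3 other groups. A dotted line divides the sets.

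Over all 26 libraries, 4 of the 84 genes did not overlap between the sets (Rpl22l1, Rps24, Rpl35 and Rpl24, each lower in the 10-library set), or 4.76%, against 19% of all genes tested. Without acute DMSO library 2, 17 did not overlap, or 20.2% against 25.2% of all genes, with 13 higher and 4 lower in the 10-library set.

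The exon differences between sets were not the same as those in reads of the 3′ UTR intervals, a separate count in the deposited conversion tables. Of the 19 genes called at baseline, 9 were tested in those reads, and 2 were called in the same direction, Rpl22l1 and Rplp0 (0.97, adjusted p = 0.026). For Rpl22l1 the 3′ UTR log2 fold changes of 4sU against DMSO were -1.13 (adjusted p = 0.042) at baseline and -1.41 (adjusted p = 0.0062) after acute stress. For Rplp1 they were -0.65 (adjusted p = 0.14) and -0.80 (adjusted p = 0.045), opposite in sign to the exon counts. For Rps24 they were -0.21 (adjusted p = 0.47) and -0.46 (adjusted p = 0.081). Of the 10 genes called after acute stress and tested in 3′ UTR reads, 5 had the opposite sign, Rpl13a, Rpl22, Rpl23a, Rpl7l1 and Rplp1. For 2 of them the 3′ UTR value was itself called by edgeR, Rplp1 and Rpl7l1 (-0.195 in exon counts, 0.268 in 3′ UTR reads, adjusted p = 0.015).

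Chronic stress against baseline in the 4sU arm crosses the sets as well. It gave 49 called genes (58.3%), 19 higher and 30 lower, against 56.5% of all genes, with a median of -0.05 (all genes, -0.02). The 4 genes with the smallest p in each direction were Rpl22l1 (log2 fold change 1.79), Rps24 (0.64), Rps27l (0.90) and Rpl35 (0.48) higher, and Rps12 (-1.14), Rps16 (-0.87), Rplp0 (-0.57) and Rpl13 (-0.63) lower, each with an adjusted p of 4.8e-05 or less by edgeR. These baseline 4sU libraries are also those of the baseline comparison of 4sU with DMSO above. Of the 20 called genes tested in 3′ UTR reads, 13 had the opposite sign there and 2, Rpl22l1 and Rplp0, were called in the same direction. In 3 of the 13 the opposite 3′ UTR value was itself called by edgeR. Rpl11, with 0.16 (adjusted p = 0.041) in exon counts, had -0.74 (adjusted p = 0.0094) in 3′ UTR reads. Rpl27a had -0.229 in exon counts and 0.443 (adjusted p = 0.0001) in 3′ UTR reads, and Rps20 -0.323 and 0.732 (adjusted p = 0.00031).

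The mean of the 2 arms gave 37 called genes, 18 higher and 19 lower (all genes, 43.8%). The difference of the chronic response between arms was called for 36 (42.9%), 8 higher and 28 lower in the 4sU arm, against 38% of all genes. That difference sets a comparison across the sets against one within a set. With all 6 groups in the fit the counts were 27 for the 4sU arm (32.1%, against 47.9% of all genes), 13 for the mean (15.5% against 32.3%) and 9 for the difference (10.7% against 25.2%). Chronic against acute 4sU libraries gave 26 called genes, 10 higher and 16 lower (all genes, 47.2%), led by Rpl22l1 (1.68), Rps24 (0.69), Rpl35 (0.51) and Rpl23a (0.49) higher and Rps12 (-1.15), Rps4l (-0.96), Rplp1 (-1.05) and Rps16 (-0.87) lower. In 3′ UTR reads Rpl23a was reversed in it (-1.35, adjusted p = 0.021), as was Rplp1 (0.40, adjusted p = 0.32).

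A few genes varied widely between libraries of the same group. Rps27a, which encodes ubiquitin fused to a 40S protein, had 94.5, 124, 98.8 and 50.1 CPM in the baseline DMSO libraries and 42.6, 185, 44.0, 44.5 and 32.9 CPM in the acute DMSO libraries. In the chronic 4sU libraries it had 41.4, 41.2, 53.7 and 133 CPM, and 108 CPM in acute 4sU library 3 against 35.4 to 46.15 CPM in the other 4. High libraries stood in 4 groups of both sets, and Rps27a was called only in the difference of the chronic response between arms (log2 1.61, SE 0.52, adjusted p = 0.027). Rpl7a, a large-subunit protein singled out for its scatter, ran from 30.7 to 124 CPM over the 10-library set and from 43.6 to 120.5 CPM over the other.

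Genes of the ribosome and its supply that the name rule does not take in were counted beside the members, from lists made with earlier results of these data known. Fau, which encodes a 40S protein fused to a ubiquitin-like sequence, and Rack1, a 40S scaffold protein, were called in none of the comparisons within a set. Rack1 (log2 fold change 0.42, adjusted p = 0.027) was called higher with 4sU at baseline and Fau (0.40, adjusted p = 0.12) was not. With 4sU at baseline, 41.9% of 15995 genes were called, 3378 higher and 3316 lower, and the following counts stand beside that share. Of 36 ribosome assembly factors, 11 were called higher and 8 lower, and of 20 genes of the RNA polymerase I machinery 4 and 5. Of 18 regulators of TOP mRNAs and mTOR signalling, 5 and 8 were called. A list of 14 elongation factors, initiation factors such as Eif3e and Eif4b, and other genes taken as TOP mRNAs gave 5 and 3. The starts of those 14 are not shown here. Of 11 tested genes of ribosome quality control and p53, 3 and 3 were called. Of 78 mitochondrial ribosomal protein genes 12 were higher and 13 lower. For acute stress against baseline 0 genes of these lists were called in either arm, and for chronic stress in the DMSO arm 0.

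Markers of cell types also differed across the sets. At baseline, 41.9% of 15995 genes were called with 4sU against DMSO, 3378 higher and 3316 lower. With 4sU against DMSO at baseline, 12 of 12 oligodendrocyte and 6 of 8 endothelial markers were lower, and 3 of 12 excitatory neuron markers were higher. The inhibitory neuron list was mixed, with 5 of 10 higher and 2 lower, as were the astrocyte list (1 of 8 higher, 3 lower) and the microglia list (1 of 9 higher, 3 lower). Of 9 striatal neuron markers 0 were called, and of 9 choroid plexus markers 1 was lower. Of 8 amygdala-enriched markers 1 was higher and 2 lower. In the acute DMSO comparison, where no member and 2.51% of all genes were called, 8 of 12 oligodendrocyte markers were higher. There 1 of 8 astrocyte markers was higher, and 2 of 8 endothelial and 1 of 8 amygdala-enriched markers were lower. Of 9 choroid plexus markers 0 were called, with a median of -0.88. In the excitatory, inhibitory, striatal and microglia lists 0 were called. The part of these markers in the members' values was not tested.

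T-to-C conversion in the 3′ UTR intervals gives the share of T positions read as C, a measure of RNA made during labelling on top of a background seen in DMSO libraries. The measure is thin for these genes, and the cause was not tested. An interval was found for 83 of the 84 (not for Rps4l), with a median of 23 T positions per interval against 229 over all genes, and 47 of the 83 had fewer than 100 covered T positions per library on average. At a minimum of 2000 covered T positions per library on average, 13 genes were tested, and these held 94.1% of the covered T positions of the 83. The pooled rate over the 83 was 0.0443% to 0.0691% in the baseline, 0.0299% to 0.0891% in the acute and 0.0646% to 0.161% in the chronic 4sU libraries. In DMSO libraries it was 0.0213% to 0.0420%, 0.0135% to 0.0379% and 0.0220% to 0.0299%. The rate over all intervals was 0.0400% to 0.0778% with 4sU and 0.0228% to 0.0318% with DMSO. A pooled value rests on 27 to 323 conversions.

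**Figure D5:**
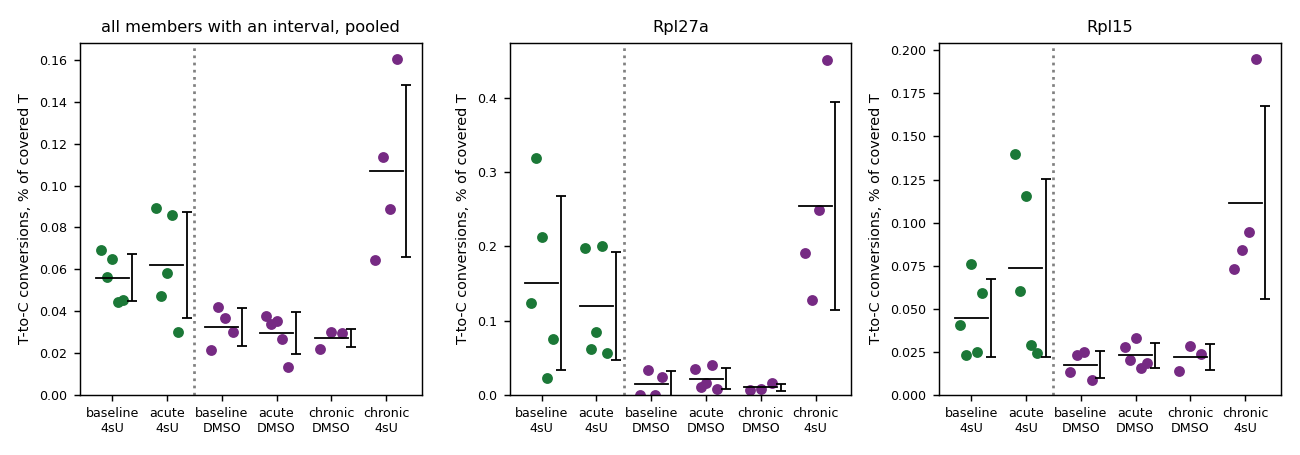
T-to-C conversions as a percentage of covered T positions, pooled over the 83 genes with an interval and for Rpl27a and Rpl15 alone, by group (points, libraries; lines, group means; bars, 1 SD). The 4sU libraries scatter widely, from 0.0299% to 0.161% in the pooled panel, and overlap DMSO there in the acute group.

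With 4sU, 2 of the 13 genes were called higher than with DMSO at baseline (7.17% of 8662 genes were), 3 after acute stress (11.7%) and 6 after chronic stress (14.2%), by edgeR with covered T positions as offset. Without chronic 4sU library 4 the last count was 3, and leaving out single libraries gave 1 to 3 at baseline. No member was called lower. The baseline and acute comparisons cross the sets and the chronic one does not, so these counts do not form a series over stress states. Rpl27a, a large-subunit protein whose interval on chromosome 7 (109521730 to 109522368, mm10, plus strand) holds 178 T positions, had the largest called difference at baseline. Its rates were 0.124%, 0.319%, 0.213%, 0.0229% and 0.0755% in the baseline 4sU libraries and 0%, 0.0334%, 0% and 0.0245% in the baseline DMSO libraries, from 63 conversions in 42024 and 8 in 51403 covered T positions. The groups overlap through 1 library, and the log2 ratio of rates was 3.21 (SE 0.55, adjusted p = 2.1e-07). After chronic stress it had 0.192%, 0.127%, 0.249% and 0.451% with 4sU and 0.0068%, 0.0078% and 0.0158% with DMSO, with no overlap, and a log2 ratio of 4.55 (SE 0.63, adjusted p = 3.0e-11).

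Rpl15, whose start is printed above with the longest pyrimidine run, has a 3′ UTR interval on chromosome 14 (18267823 to 18269009, minus strand) with 409 T positions. Its rates were 0.0404%, 0.0229%, 0.0759%, 0.0247% and 0.0591% with 4sU and 0.0133%, 0.0230%, 0.0251% and 0.0088% with DMSO at baseline, overlapping, with a log2 ratio of 1.31 (SE 0.44, adjusted p = 0.044). After chronic stress they were 0.0731%, 0.0842%, 0.0944% and 0.195% with 4sU and 0.0139%, 0.0286% and 0.0236% with DMSO, with no overlap and a log2 ratio of 2.31 (SE 0.44, adjusted p = 3.7e-06). Rpl23 was called after acute and chronic stress. The acute call rests on library 4 of the 4sU group, with 0.548% where the other 4 had 0%, 0%, 0.0424% and 0%, and without it the log2 ratio was 0.33 (adjusted p = 0.95). Rpl41, Rps15a and Rpl22 were called after chronic stress.

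Stress did not give a called change of conversion in the 4sU arm once the libraries were scaled to a common overall rate. For acute stress 0 of 13 were called and 0 had an unadjusted p under 0.05 by edgeR, against 0.0115% of all genes called. For chronic stress, where the comparison crosses the sets, 0 were called, against 0.312% of all genes. By edgeR 2 had an unadjusted p under 0.05, Rpl15 (log2 ratio 0.92, adjusted p = 0.42) and Rpl22 (1.03, adjusted p = 0.54). No other tool was run on conversions. Chronic 4sU library 4 had the highest pooled member rate (0.161%) and the highest overall rate (0.0778%) of all libraries.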

How the data were processed

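Exon counts per gene are deposited as raw counts. The tools and build named in the submitters' processing notes are cutadapt 3.1, HISAT2 2.1.0, SAMtools 1.9, featureCounts 2.0.1 and mm10; which step used which, and the strand and multi-match settings, were not given in the sources used here. The conversion tables come from Slamdunk 0.4.3, per the file headers. Per 3′ UTR interval they hold deposited counts of reads, covered T positions and conversions, a conversion rate as a fraction, and reads as CPM. Columns mapped to no sample numbered 0.

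For 26 amygdala libraries, exon counts went into edgeR 4.0.16 (R 4.3.3; quasi-likelihood, TMM, filterByExpr, 1 coefficient per group), with adjustment over all genes at 0.05. Baseline was fitted with acute and, separately, with chronic groups; chronic against acute used all 6 groups. Conversions were tested as deposited, with covered T positions as offset and a mean of at least 2000 per library; the deposited fractions equal their ratio, and the deposited CPM were not tested. CPM in the text are TMM-scaled from the counts. DESeq2 1.42.0, other scalings and filters, 3′ UTR reads and left-out libraries were alternatives. Scripts were tested on simulated data.

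Named genes were 20 preset names, up to 4 with the smallest p in each direction among those called in a comparison, the 3 highest and 3 lowest levels, up to 5 with the largest rate difference at baseline, and exceptions to counts; genes outside this were singled out after their values were seen. The members and lists were chosen with earlier results of these data known. Samples with the same replicate number did not deviate together (median correlation -0.03 over 58 pairs), so no pairing was used. Results for a few genes are not reported here.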

Additional observations from a re-analysis of the deposited data

Results flagged for a closer look

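Acute DMSO library 2 stood apart from the other 4 libraries of its group in the mean log2 level of the 84 genes (7.26) and in their share of counts (1.915%). It also did so in single genes named in the text. For the stalk, Rplp0 had 316.1 CPM there, Rplp1 386.0 CPM and Rplp2 143.8 CPM. For the small subunit, Rpsa had 567.6 CPM, Rps6 429.4 CPM, Rps12 88.51 CPM, Rps24 493.5 CPM, Rps27a 185.3 CPM and Rps27l 20.62 CPM. For the large subunit, Rpl3 had 627.1 CPM, Rpl22 137.3 CPM, Rpl22l1 110.1 CPM and Rpl41 529.3 CPM. Rps27a was also apart in acute 4sU library 3, at 107.7 CPM, and in chronic 4sU library 4, at 132.9 CPM. In all, 17 of 80 sets of values had a library apart by Dixon's test, where chance gives about 1 in 20; values from one library are not independent.

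The response to chronic stress differed between the 4sU and the DMSO arm for 36 of the 84 genes (42.9%) by the edgeR test of that difference, against 38% of all genes. With all 6 groups in the fit the count was 9 (10.7%, against 25.2% of all genes). The differences, 4sU arm minus DMSO arm on the log2 scale, were 1.60 for Rpl22l1, 0.56 for Rps24, 0.71 for Rps27l and 0.30 for Rpl24. They were -1.18 for Rps12, -0.87 for Rps16, -0.72 for Rpl13 and -0.67 for Rpl8. The 4sU arm crosses the 2 library sets and the DMSO arm does not, so arm and set cannot be told apart.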

How the results depend on the processing

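Of 1774 alternative values for 86 calls of named genes, 1651 kept direction and threshold, 108 lost the call and 15 reversed, all 15 with 3′ UTR reads in place of exon counts; the cause was not tested. The reversed log2 values for Rplp1 were -0.650 and -0.805 with 4sU against DMSO at baseline and after acute stress, 0.479, 0.152 and 0.654 for chronic stress against baseline (4sU arm, mean and difference of arms) and 0.402 for chronic against acute 4sU. For Rpsa they were 0.090, 0.047 and 0.087 for chronic stress against baseline in the same order and 0.288 for chronic against acute 4sU, where Rpl23a had -1.349. Rpl22 had 0.014 with 4sU against DMSO after acute stress. For chronic stress against baseline in the 4sU arm, Rpl22 had -0.107, Rpl11 -0.744 and Rps3 -0.186. Reversed here means only the opposite sign. In 3′ UTR reads the edgeR adjusted p of these reversed values was under 0.05 only for Rplp1 after acute stress (0.045), Rpl11 (0.0094) and Rpl23a (0.021). Outside the 86 calls it was also under 0.05 for reversed values of Rpl7l1 after acute stress (0.015) and Rpl27a in the chronic 4sU arm (0.0001). The same held for Rps20 in the chronic 4sU arm (0.00031) and the mean of arms (0.023). With these reads, which test 37 to 41 of the 84 genes, the counts called were 12 and 13 for 4sU against DMSO at baseline and after acute stress, 13, 9 and 10 for chronic stress (4sU arm, mean, difference) and 14 for chronic against acute 4sU. The shares of all genes called in 3′ UTR reads are not given here, so these counts are no result about the 84 genes.

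With only the compared groups in the fit, 4sU against DMSO gave 51 at baseline (60.7%, against 57.7% of all genes) and 14 after acute stress (16.7% against 39%). With all 6 groups, chronic stress gave 27, 13 and 9 (4sU arm, mean, difference), or 32.1%, 15.5% and 10.7%, against 47.9%, 32.3% and 25.2% of all genes. For acute stress in the DMSO arm the count of 0 became 1 with all 6 groups, 1 with DESeq2 and 9 without the 5 libraries low in excitatory neuron markers, and for chronic stress in the DMSO arm 1 with DESeq2. In the same order, 3.46% of all genes, 821 of 15993 genes, 14.7% of all genes and 11 of 16096 genes were called. Leaving out 1 library gave 14 to 19 and 19 to 44 for 4sU against DMSO at baseline and after acute stress, 43 to 47, 33 to 39 and 25 to 39 for chronic stress (4sU arm, mean, difference) and 22 to 27 for chronic against acute 4sU, the 44 without acute DMSO library 2; the other comparisons stayed at 0. For conversion it gave 1 to 3, 2 to 4 and 3 to 6 at baseline, after acute and after chronic stress. A coverage minimum of 500, or all intervals summed, gave 1 at baseline, and no rescaling gave 1 for chronic against baseline.

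With the replicate number as a replicate block, the counts were 17 and 24 for 4sU against DMSO at baseline and after acute stress, 45, 37 and 36 for chronic stress (4sU arm, mean, difference), 25 for chronic against acute 4sU and 0 for the others. Of all genes, 6335 and 7572 of 15995, then 8523, 6497 and 5571 of 16096, and 7485 of 16310 were called in the same order. Correlations of same-numbered samples ran from -0.49 to 0.39, and those of differently numbered samples from other groups from -0.60 to 0.66. This cannot show what else same-numbered samples may share.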
